A study of Mus musculus with 4 samples.

Results

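The cells described here were neonatal pituitary macrophages with few transcripts of MHC class II and of Lyve1. They were chosen by raw counts of UMIs (unique molecular identifiers, each standing for 1 counted RNA molecule) in the newborn and 1-week libraries. A barcode, which stands for 1 droplet and mostly for 1 cell, was a member with at least 1500 UMIs, under 10% mitochondrial UMIs and at least 10 UMIs of C1qa, C1qb and C1qc together. It also needed fewer than 10 UMIs of H2-Aa, H2-Ab1 and H2-Eb1, fewer than 2 of Lyve1, Cd163 and Folr2, and fewer than 3 of Sparc and Siglech. Barcodes with 3 or more UMIs of Cd79a and Cd79b, or 2 or more of Cd3d, Cd3e and Cd3g, were left out. These limits gave 90 members of 368 deposited barcodes at newborn and 451 of 1981 at 1-week, 541 in all. Every barcode came from leukocytes sorted for CD45 from the pituitary of C57BL/6N males, and each age (newborn, 1-week, 3-week, 8-week) has 1 library. No other allele or agent is named in the labels. The number of animals pooled, and whether a library held the whole gland or its anterior or posterior part, are not given in the labels. With 1 library per age no difference below has a replicate check, and intervals cover counting error only.

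Macrophages are phagocytes that live in every organ. In the pituitary they lie among hormone-secreting cells and blood vessels. C1qa, C1qb and C1qc encode the subunits of C1q, which starts the classical complement cascade and which tissue macrophages make in quantity. MHC class II molecules present peptides to CD4+ T cells. Lyve1, Cd163 and Folr2 are widely used to mark perivascular macrophages of connective tissue, and Sparc and Siglech are prominent in microglia, the macrophages of brain parenchyma. Cells without these transcripts are thus defined here by what they lack. Apolipoprotein E and apolipoprotein C1 carry lipids, and interleukin-1 alpha and beta are inflammatory cytokines that act through a shared receptor.

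Member barcodes held a median of 12347 UMIs at newborn and 6148 at 1-week, and the members' UMIs came to 1116817 and 2929794. Ribosomal protein genes took 15.8% and 16.5% of them. The other C1q-positive barcodes (at least 10 C1q UMIs, but outside a limit) were deeper, with medians of 15136 and 8526 UMIs. Because the limits are on raw UMIs, depth enters the choice of members at both ages. In the newborn members the MHC class II sum was 0 in 87 of 90 barcodes and never above 1, and the Lyve1, Cd163 and Folr2 sum was 0 in 87 of 90. At 1-week 409 of 451 members had 0 for the MHC class II sum, 2 members stood at the highest value allowed, 9, and 1 barcode was left out at 10. For the Lyve1, Cd163 and Folr2 sum 42 members stood at 1 UMI, just inside the limit, and 12 barcodes that passed all other limits stood at 2, just outside. Of the members, 1 newborn and 5 1-week barcodes also occurred in another library. Doublets were marked by the highest Scrublet scores, in a number set beforehand by an assumed rate of 0.8% per 1000 barcodes. That number was 1 barcode in the newborn library and 31 at 1-week. Of these, 0 were among the 90 newborn members and 4 among the 451 at 1-week. These counts therefore do not measure how many members were doublets.

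Markers of other cells differed in level between cell types. The dendritic cell list was the highest, at 834 and 726 CPM in the members against 437 and 400.2 in barcodes with fewer than 3 C1q UMIs, and 81 of 90 and 284 of 451 members held 3 or more UMIs of it. Bst2, which is also an interferon-stimulated gene, led that list, and Xcr1, Clec9a and Cd209a were at 0 in the members at both ages. Neutrophil markers summed to 68.9 and 85.3 CPM, against 18751 and 27368 in barcodes with fewer than 3 C1q UMIs. All 8 T and NK cell markers were at 0 in the newborn members, and at 1-week their summed level was 11.9 CPM (the usual scaling of counts by a group's total UMIs). The 7 B cell markers summed to 54.6 CPM at newborn, with Cd79a and Ms4a1 at 0, and to 73.4 CPM at 1-week, mostly from Cd79b at both ages. The 6 erythroid markers summed to 0.895 and 0.341 CPM. The 7 mast cell and basophil markers summed to 189 CPM at newborn, where 1 barcode reached 145 UMIs per 10000, and to 1.71 CPM at 1-week. Pituitary hormone genes and other endocrine markers, 9 in all, summed to 241 and 298 CPM. At newborn Pomc led them and its highest barcode gave 76.2% of its UMIs, and at 1-week the summed level ran from 0 to 1098 UMIs per 10000 in single barcodes. The part of this other-cell RNA in the results below was not tested, but results were also computed without barcodes holding 3 or more UMIs over S100a8, S100a9, Retnlg, Ngp, Camp, Nkg7, Gzma, Cpa3, Mcpt8, Flt3 and Xcr1. That set holds no B cell, endocrine or erythroid gene and not Bst2.

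The members made up more than any other group of the C1q-positive barcodes at both neonatal ages. They were 90 of 161 at newborn, 55.9% (exact 95% binomial interval 47.9% to 63.7%), and 451 of 829 at 1-week, 54.4% (50.9% to 57.8%). The intervals of the 2 ages overlapped. The same limits passed 241 of 1451 C1q-positive barcodes at 3-week, 16.6%, and 282 of 2859 at 8-week, 9.86%. The rest at newborn and 1-week fell into barcodes past the MHC class II limit (5 and 54), past the Lyve1, Cd163 and Folr2 limit (26 and 207, called the Lyve1 group), past the Sparc and Siglech limit (28 and 86, the Sparc group), and past a lymphocyte gene limit (12 and 31). The newborn share depended on depth. With UMIs scaled to 6000 per barcode before the limits were applied, it was 77.6% at newborn and 57.5% at 1-week.

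**Figure D1:**
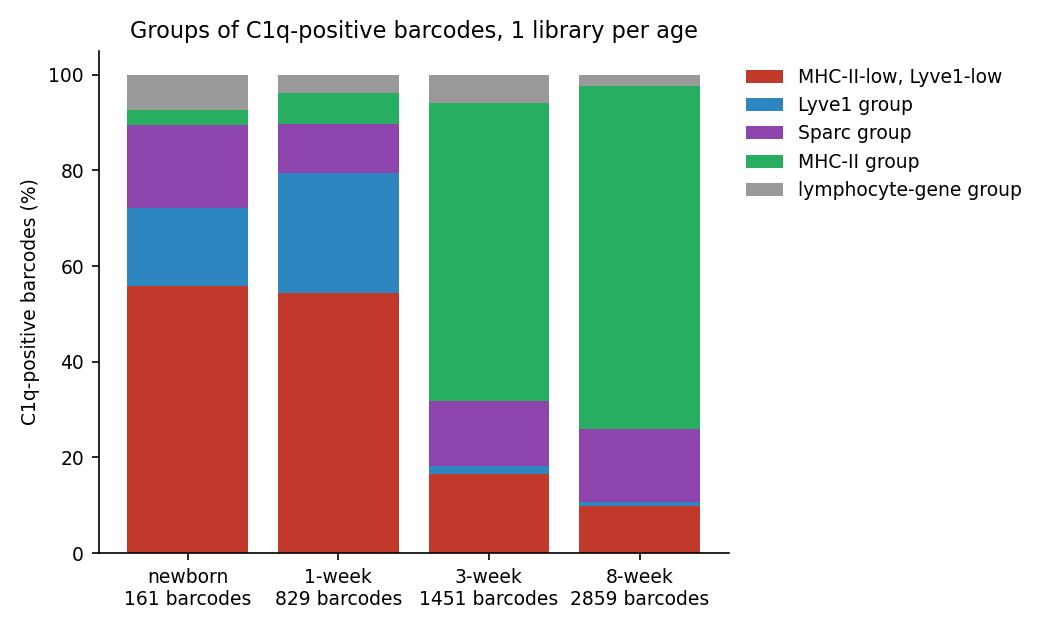
Bars show the percentage of C1q-positive barcodes in each of 5 groups (y axis) in the 4 libraries (x axis, with the number of C1q-positive barcodes). The MHC-II-low, Lyve1-low group, in red, takes 55.9% and 54.4% at newborn and 1-week and 16.6% and 9.86% at 3-week and 8-week.

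The 5 markers proposed for these cells behaved differently from each other. C1qa, which is part of the rule, stood at 6142 CPM in the newborn members and 6562 at 1-week. Apoe had the highest mean level of the genes considered for naming, at 43802 and 50362 CPM, and had a UMI in 90 of 90 and 450 of 451 members. Its median was 494 UMIs per 10000 in a newborn member (quartiles 315 and 624) and 468 at 1-week (344 and 685). Fcrls, a receptor-like gene of the Fc receptor family best known from microglia, stood at 799 and 917 CPM. After each barcode was thinned to 1500 UMIs, it had a UMI in 64.4% and 65.9% of members and in 0% and 0.235% of barcodes gated as B cells (medians of 6523 and 4057 UMIs before thinning), which should lack it. Apoe itself had a UMI in 11.8% and 17.6% of those thinned B cell barcodes, so a single Apoe UMI is not a sign of expression in these libraries.

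Apoc1 and Il1a were each detected in only some members. Apoc1 lies beside Apoe on chromosome 7 (Apoc1 at 19689481 to 19692660 and Apoe at 19696109 to 19699188, mm10). It had a UMI in 50 of 90 newborn members and in 105 of 451 at 1-week, and its level was 381 CPM at newborn and 101 CPM at 1-week. Thinned to 1500 UMIs, 24.4% and 9.76% of members had a UMI, against 1.96% and 0% of B cell barcodes. Il1a went the other way with age, from 199 to 490 CPM, with a UMI in 38 of 90 and 193 of 451 members. Its thinned shares were 17.8% and 28.4%, against 0% in both B cell sets. In the barcodes that passed the same limits at 3-week and 8-week, Apoe stood at 31871 and 43217 CPM, Fcrls at 645 and 1068, Il1a at 322 and 230, and Apoc1 at 28.1 and 24.7.

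**Figure D2:**
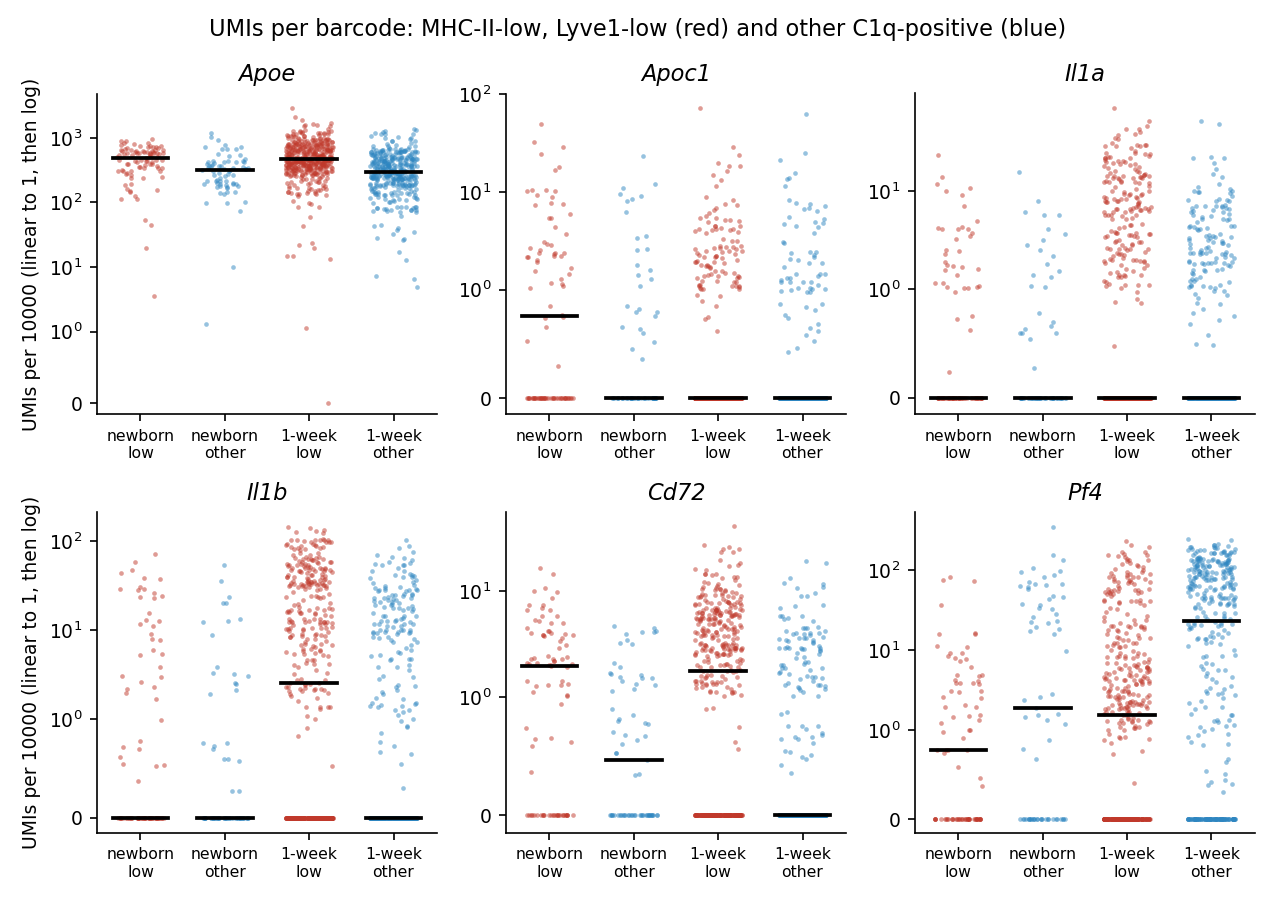
Each point is 1 barcode and each panel 1 gene, with UMIs per 10000 on the y axis (linear to 1, then log) and black lines at the medians. Red marks the 90 newborn and 451 1-week MHC-II-low, Lyve1-low barcodes and blue the 71 and 378 other C1q-positive barcodes; Apoe is above 0 in all but 1 red barcode, while Apoc1 and Il1a are at 0 in many.

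The 15 genes of highest mean level, with ribosomal protein and mitochondrial genes left out, were led by Apoe. After it came Tmsb4x, an actin-binding peptide, at 19762 and 22177 CPM, and Malat1, a nuclear noncoding RNA, at 10680 and 16556. Actb stood at 8612 and 8491 CPM, and the ferritin subunits Fth1 and Ftl1 at 9111 and 7527 and at 8689 and 7321. The protease inhibitor Cst3 (4418 and 5388 CPM) and the protease cathepsin S, Ctss (3931 and 3273), followed, with Fcer1g, the signalling chain of Fc receptors, at 2905 and 3033. The transcription factor genes Fos and Junb were also among the 15 highest, at 2419 and 4792 and at 2572 and 3828 CPM. None of these 15 genes was 2-fold apart between the ages.

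The members carried the general macrophage genes at both ages. All 14 genes of the macrophage identity list were measured, which means at 10 CPM or more on either side of a comparison. Csf1r, the receptor for the macrophage growth factor CSF1, stood at 902 and 847 CPM, and Tyrobp, a signalling adaptor, at 2349 and 2965. Adgre1, which encodes F4/80, stood at 444 and 365 CPM. Genes that are prominent in homeostatic microglia were present too: Cx3cr1 at 862 and 1253 CPM, Trem2 at 818 and 819, P2ry12 at 199.7 and 163 and Tmem119 at 201 and 136. Sall1, a transcription factor that defines microglia, was at 0 UMIs in the newborn members, where 3 UMIs would give 2.69 CPM, and at 2.73 CPM at 1-week. Of the 12 measured microglial genes 0 were 2-fold apart between ages, against 2.54% higher and 4.95% lower over all measured genes.

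The next comparison set the members against the other C1q-positive barcodes of the same library. These 2 sets were split by their own transcripts, so the differences describe the split and none was tested. A gene was called apart at 2-fold or more with an exact 95% Poisson interval that left out 1. At newborn 160 of 8719 measured genes were higher in the members (1.84%) and 427 lower (4.9%). At 1-week 181 of 8423 were higher (2.15%) and 422 lower (5.01%). In both libraries 35 genes were higher and 162 lower.

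Genes higher in the members at both ages encoded immune receptors, a chemokine, interleukin-1 beta and enzymes. Cd72, a C-type lectin-like receptor that is also a B cell gene, stood at 282 CPM against 102 at newborn, 2.77-fold higher (2.24 to 3.43), and at 333 against 93.4 at 1-week, 3.57-fold (3.16 to 4.04). It had a UMI in 25.6% and 31.3% of thinned members, 9.86% and 10.8% of the other C1q-positive barcodes, and 15.7% and 28.5% of B cell barcodes. The limits on Cd79a and Cd79b are part of the rule, so their low level in the members is no evidence here. Ms4a1, which is not in the rule, was at 0 in the newborn members but not in those at 1-week. The part of B cell RNA in the Cd72 values was not tested. Cxcl16, a membrane-bound chemokine and scavenger receptor, was 2.17-fold (1.87 to 2.53) and 3.27-fold (2.96 to 3.62) higher. Its thinned share was 46.7% and 43.0% in members against 28.2% and 17.5% in the others and 0% and 0.235% in B cell barcodes. Slamf9, a receptor of the SLAM family, was 3.05-fold and 2.89-fold higher, at 135 and 178 CPM.

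Il1b stood at 756 CPM in the newborn members against 321 in the other barcodes, 2.35-fold (2.08 to 2.66), and at 1998 against 783 at 1-week, 2.55-fold (2.44 to 2.67). Il1a was 2.49-fold higher in the 1-week members (490 against 197 CPM) and 1.90-fold at newborn (199 against 104 CPM), below the size rule there. Apobec1, an RNA-editing cytidine deaminase, was 2.11-fold and 3.02-fold higher, Mmp14, a membrane-bound matrix metalloproteinase, 2.75-fold and 2.96-fold, and Col14a1, a fibril-associated collagen, 2.66-fold and 4.35-fold. Gadd45g, a stress response gene, was 3.09-fold and 2.27-fold higher, and Glipr1 3.00-fold and 2.47-fold. Zmynd15 was 3.16-fold and 3.36-fold higher, but its locus shares 552 bases with that of Cxcl16 on the opposite strand (mm10 chromosome 11, Zmynd15 at 70459433 to 70466202 and Cxcl16 at 70453983 to 70459984). Longer overlaps with protein-coding genes on the opposite strand are annotated for Cd72 (Tesk1, 1603 bases) and Glipr1 (Krr1, 2985). The same holds for Gas6 (Tmem255b, 3100 bases), Ccl2 (Gm17268, 1883) and Cmss1 (Filip1l, 220034), which are named below. The sources used here do not say whether counting used strand, and the part of these overlaps in the counts was not tested. With limits on scaled UMIs, Il1b at newborn no longer met the size rule (log2 ratio 0.53). Thinned to 1500 UMIs, Gadd45g was not apart in either library, nor Col14a1 at newborn (log2 ratio 0.66) or Zmynd15 at 1-week (0.66), while Cd72, Slamf9, Cxcl16 and Apobec1 met it under each alternative tried in both libraries.

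Stretches just upstream of 3 genes show what the annotation gives for a marker (Il1a), a gene higher in the members (Cd72) and the most counted of the named genes lower in them (Pf4). Each is the 250 bases before the RefSeq start in GRCm38.p6, written 5′ to 3′ on the gene's strand, and capitals mark GAGGAAG or its reverse complement CTTCCTC, letters that contain the core bound by ETS-family factors such as PU.1. The windows are chr2:129309973-129310222 on the minus strand for Il1a, chr4:43454627-43454876 on the minus strand for Cd72, and chr5:90772185-90772434 on the plus strand for Pf4.
Il1a: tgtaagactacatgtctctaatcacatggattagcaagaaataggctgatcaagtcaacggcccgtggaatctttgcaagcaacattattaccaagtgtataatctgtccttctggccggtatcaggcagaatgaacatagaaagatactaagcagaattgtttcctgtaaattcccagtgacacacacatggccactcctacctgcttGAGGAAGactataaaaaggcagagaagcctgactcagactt
Cd72: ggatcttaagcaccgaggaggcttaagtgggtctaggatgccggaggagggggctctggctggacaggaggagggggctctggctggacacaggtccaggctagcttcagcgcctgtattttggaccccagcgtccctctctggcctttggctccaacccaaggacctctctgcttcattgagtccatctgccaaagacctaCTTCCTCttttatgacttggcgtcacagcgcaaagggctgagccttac
Pf4: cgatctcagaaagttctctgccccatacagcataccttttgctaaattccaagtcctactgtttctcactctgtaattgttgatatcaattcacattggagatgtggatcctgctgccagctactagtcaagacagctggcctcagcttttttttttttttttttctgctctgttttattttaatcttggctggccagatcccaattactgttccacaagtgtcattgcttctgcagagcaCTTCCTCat
Each window held the motif once, Il1a on the gene's strand and Cd72 and Pf4 on the other. Over both strands 3486 of all 32851 windows held it, 10.6%. The genes and the motif were picked and not drawn at random, so the 3 matches are no evidence of enrichment over that share. Of the 5 markers 3 have a window in this annotation, and only that of Il1a is shown. The match is a description of the letters and was not tied to binding or to the levels here.

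Most measured genes of the border and perivascular macrophage list were lower in the members at both ages. At newborn 11 of 16 measured genes of that list were lower and 0 higher, with a median log2 ratio 2.31 below that of all measured genes. At 1-week 12 of 16 were lower and 1 higher, with a median 1.75 below. The list was chosen with earlier results of these cells known, and 3 genes of this kind are in the rule, so its direction is no independent evidence. Pf4, a platelet chemokine that border macrophages also make, stood at 338 CPM against 2268 at newborn, 6.70-fold lower, and at 1229 against 4160 at 1-week, 3.38-fold lower. F13a1, the coagulation factor XIII A chain, stood at 41.2 against 734 CPM at newborn and 97.6 against 602 at 1-week. Mrc1, the mannose receptor, stood at 279 against 806 and 535 against 1413 CPM. Ms4a7, a membrane protein of many tissue macrophages, was the exception, at 992 against 549 CPM at newborn and 1748 against 873 at 1-week, where it was 2.00-fold higher.

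Other named genes lower at both ages were lectins, receptors and secreted proteins. Fcna, the lectin ficolin A, had 8 UMIs in the newborn members (7.16 against 243 CPM) and 16 at 1-week (5.46 against 103 CPM). Ednrb, the endothelin B receptor, stood at 8.06 against 153 and 31.7 against 222 CPM, and Cbr2, a carbonyl reductase, at 2.69 against 60.8 and 19.5 against 144 CPM. The lectins Clec10a and Mgl2 stood at 8.06 against 55.1 and 3.58 against 33.7 CPM at newborn. Gas6, a ligand of the TAM receptors, stood at 62.7 against 245 and 115 against 396 CPM, and Rgs7bp at 4.48 against 41.9 and 4.78 against 31.3 CPM.

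**Figure D3:**
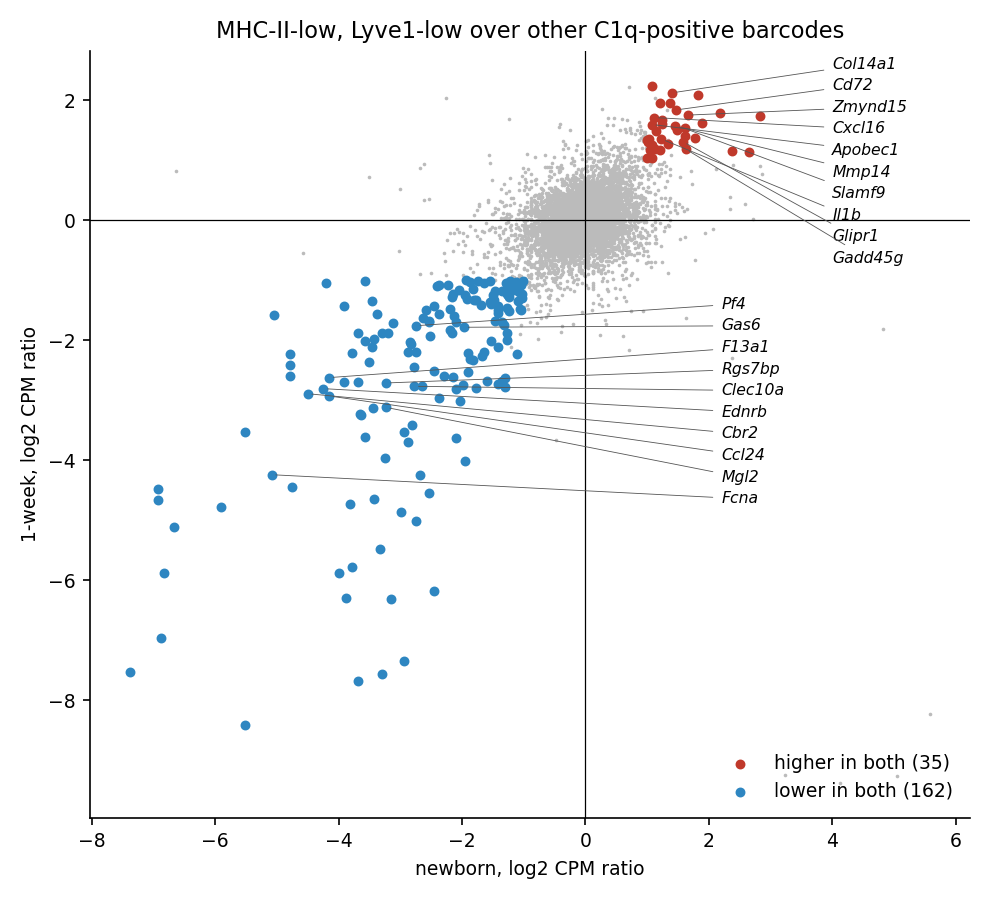
Each point is 1 gene, placed by its log2 CPM ratio of MHC-II-low, Lyve1-low over other C1q-positive barcodes at newborn (x axis) and at 1-week (y axis). The 35 genes higher in both libraries are red and the 162 lower in both are blue, and the named genes carry their symbols; the lower genes reach farther from 0 than the higher ones.

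The other C1q-positive barcodes were mixed. Pf4 stood at 6242 and 7727 CPM in the Lyve1 group of the 2 libraries but at 84.3 and 163 CPM in the Sparc group, which is below the members' 338 and 1229. F13a1 stood at 1801 and 1126 CPM in the Lyve1 group and 8.22 and 2.45 in the Sparc group. For Pf4 and F13a1 the members lay between the 2 groups. Each of the 10 leading genes higher in the members was above both groups: Cd72 stood at 56.4 and 19.9 CPM in the Lyve1 group and 129 and 110 in the Sparc group, and Apobec1 at 159 and 91.8 and at 304 and 202. Apoe at 43802 and 50362 CPM in the members likewise stood above the Lyve1 group (27785 and 34517) and the Sparc group (33586 and 29986). Fcrls, at 799 and 917 CPM, stood below both (983 and 1212, and 1202 and 1540). Barcodes past the MHC class II limit (5 and 54) or a lymphocyte gene limit (12 and 31) are not part of these comparisons. None of these genes is thus shown to be particular to the members.

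Chemokines were split in the same comparison. Of 12 measured chemokine genes 5 were lower and 1 higher in the members, in each library. Ccl2, which attracts monocytes, stood at 115 against 293 CPM at newborn and 471 against 3010 at 1-week. Ccl24, which attracts eosinophils, stood at 4.48 against 79.7 and 142 against 1079 CPM, and Ccl7 at 45.7 against 113 and 185 against 1266. Ccl4, Ccl3 and Ccl12 differed by less than 2-fold in both libraries. At newborn the list's median rested on the limits: it was 0.56 below that of all genes with raw limits and 0.40 above it with limits on scaled UMIs.

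Growth factor genes were also split. Pdgfa, a platelet-derived growth factor subunit, was higher in the members of both libraries, at 48.4 against 20.6 and 32.8 against 10.4 CPM. For Gdf15, a stress-induced hormone (48.4 against 10.7 and 47.8 against 13.8 CPM) 1 barcode gave 72.2% of the newborn members' UMIs and 32.9% of those at 1-week. Its newborn UMIs lay in 5 members and 1 other barcode, and without the highest barcode the newborn members stood at 13.6 CPM, so no newborn difference is read for Gdf15. Csf1, the growth factor of macrophages, was lower in both, at 4.48 against 27.95 and 6.14 against 41.9 CPM. Pdgfb was higher at 1-week only by the size rule, at 200.4 against 64.8 CPM, and stood at 108 against 59.2 at newborn. Among transcription factors Runx3 was higher in the members of both libraries (126 against 53.4 and 75.4 against 24.95 CPM), and Klf4 lower (26.9 against 93.7 and 111 against 279). Spi1, which encodes PU.1, differed by less than 2-fold, at 621 against 530 and 549 against 417 CPM. The scavenger and phagocytosis receptors Axl and Itgav were higher only at 1-week by this rule, Axl at 127 against 40.1 CPM and Itgav at 89.4 against 43.8.

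From newborn to 1-week the members differed in cytokine, chemokine and border macrophage genes in one direction and in cell cycle and interferon genes in the other. Of 8417 measured genes 214 were higher at 1-week (2.54%) and 417 lower (4.95%), in size only. The median log2 ratio of all measured genes was -0.16. When the libraries were scaled by the median ratio instead, which sets that median to 0, 327 were higher and 264 lower, so the balance between the directions depends on the scaling. Age and library cannot be told apart here.

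Interleukin-1 genes were higher at 1-week. Il1b stood at 756 CPM in newborn and 1998 in 1-week members, 2.64-fold higher (2.46 to 2.84), with a UMI in 42 of 90 and 254 of 451 of them. Il1a was 2.47-fold higher (2.14 to 2.85). Ptgs2, the inducible cyclooxygenase, stood at 17.9 and 52.6 CPM. Il10 was at 0 UMIs at newborn and 12.3 CPM at 1-week, 4.57-fold higher if the newborn members are put at a floor of 3 UMIs. In all 4 of 12 measured genes of the list were higher and 0 lower. Tnf, at 147 and 114 CPM, and the inflammasome gene Nlrp3, at 269.5 and 270.0, were not apart. In the other C1q-positive barcodes Il1b and Il1a were 2.44-fold and 1.89-fold higher at 1-week. In barcodes with fewer than 3 C1q UMIs Il1b was 1.88-fold lower at 1-week (1162 and 618 CPM).

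Chemokines were higher at 1-week as well, in 4 of 12 measured genes with 0 lower. Ccl4 stood at 1144 and 2505 CPM, 2.19-fold higher (2.06 to 2.32), and Ccl7 at 45.7 and 185. Ccl24 had 5 UMIs in 4 newborn members and 415 in 60 members at 1-week, 31.6-fold higher (13.4 to 98.0). Of the 415 UMIs 378 lay in 109 members with 10 or more Pf4 UMIs per 10000, at 634 CPM, and the other 342 members stood at 15.9 CPM. With limits on scaled UMIs the log2 ratio of Ccl24 was 2.84, from 4.98. Ccl2 stood at 115 and 471 CPM, 4.11-fold higher, but 1 barcode gave 59.4% of its newborn UMIs, and without the highest barcode on each side the levels were 47.2 and 405 CPM. In the members with fewer than 10 Pf4 UMIs per 10000, Ccl2 stood at 48.3 and 111 CPM, a log2 ratio of 1.20 against 2.04 in all members. In the other C1q-positive barcodes Ccl2 and Ccl24 were also higher at 1-week, by 10.3-fold and 13.5-fold.

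Genes of the border and perivascular list, which were low in the members at both ages, were higher at 1-week than at newborn in 9 of 15 measured cases with 0 lower. The list's median was 1.31 above that of all genes. Pf4 was 3.63-fold higher (338 and 1229 CPM), Maf, a transcription factor gene, 2.08-fold (300.0 and 624), and Igfbp4 2.22-fold (80.6 and 179). Cd209f was at 0 UMIs at newborn and 69.3 CPM at 1-week, 25.8-fold higher if the newborn members are put at a floor of 3 UMIs. These differences moved with the share of members rich in Pf4 (9 of 90 and 109 of 451), itself a gene of the list. In the members with fewer than 10 Pf4 UMIs per 10000, 81 at newborn and 342 at 1-week, Maf stood at 263 and 440 CPM, below the size rule, Mrc1 at 238 and 260, and Gas6 at 53.9 and 37.3. The differences moved as well with how the limits met the depth of the 2 libraries. With UMIs scaled to 6000 per barcode before the limits, the list's median was 0.96 above all genes, Pf4 no longer met the size rule (log2 ratio 0.91, from 1.86), and F13a1 turned from a log2 ratio of 1.24 to -0.52. Within the 1-week members Pf4 stood at 2016 CPM in barcodes below the median depth and 881 CPM in the deeper ones.

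The immediate-early list, genes that respond within minutes to stimuli and also to tissue dissociation, was higher at 1-week in 5 of 18 measured genes and lower in 0. Nr4a1, a nuclear receptor, was 5.10-fold higher (83.3 and 425 CPM, interval 4.13 to 6.37), Atf3 3.21-fold (681 and 2185) and Fosb 2.67-fold (137 and 366). Fos stood at 2419 and 4792 CPM, 1.98-fold. The list was also higher at 1-week in 6 of 18 genes in the other C1q-positive barcodes (background 3.71%), with a median 0.81 above that of all genes against 0.82 in the members. In the barcodes with fewer than 3 C1q UMIs Atf3 and Fosb went the other way (351 and 205, and 138 and 75.5 CPM), and Nr4a1 was 1.29-fold higher. The time from dissection to sorting in each library is not given in the labels, and its part in these values was not tested. Of the macrophage identity list Cd14, a coreceptor for bacterial lipopolysaccharide, and Lyz2, lysozyme, were higher, at 497 and 1390 and at 1140 and 2334 CPM.

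Some of the largest differences by age were also present in the barcodes of the 2 libraries with fewer than 3 C1q UMIs. Cdk8 was 8.31-fold higher at 1-week in the members (59.1 and 491 CPM) and stood at 67.6 and 613 CPM in barcodes with fewer than 3 C1q UMIs. Cmss1 was 5.60-fold higher, with 189 and 845 CPM in those barcodes. AY036118, whose locus lies within an annotated ribosomal RNA gene on the same strand, was 6.27-fold higher, with 136 and 743 CPM there. Rnaset2b, 4.60-fold higher, overlaps another gene model on its strand and stood at 21.0 and 108 CPM there. Medians per 10000 UMIs in barcodes through the members' limits follow for newborn, 1-week, 3-week and 8-week. They were 0, 4.58, 0 and 0 for Cdk8, and 1.08, 7.70, 1.21 and 1.21 for AY036118. For Rnaset2b they were 0, 1.97, 0 and 0, and for Cmss1 0.988, 5.64, 2.29 and 4.42. Ftl1-ps1, a ferritin pseudogene that shares sequence with the abundant Ftl1, was 7.27-fold higher on 12 and 229 UMIs, and its counts are uncertain for that reason. Ftl1 itself stood at 8689 and 7321 CPM. Fat3, a large cadherin, was 5.75-fold higher on 12 and 181 UMIs, and stood at 6.71 and 2.85 CPM in the barcodes with fewer than 3 C1q UMIs. Thinned to 1500 UMIs, its ratio in the members no longer met the size rule (log2 1.05).

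**Figure D4:**
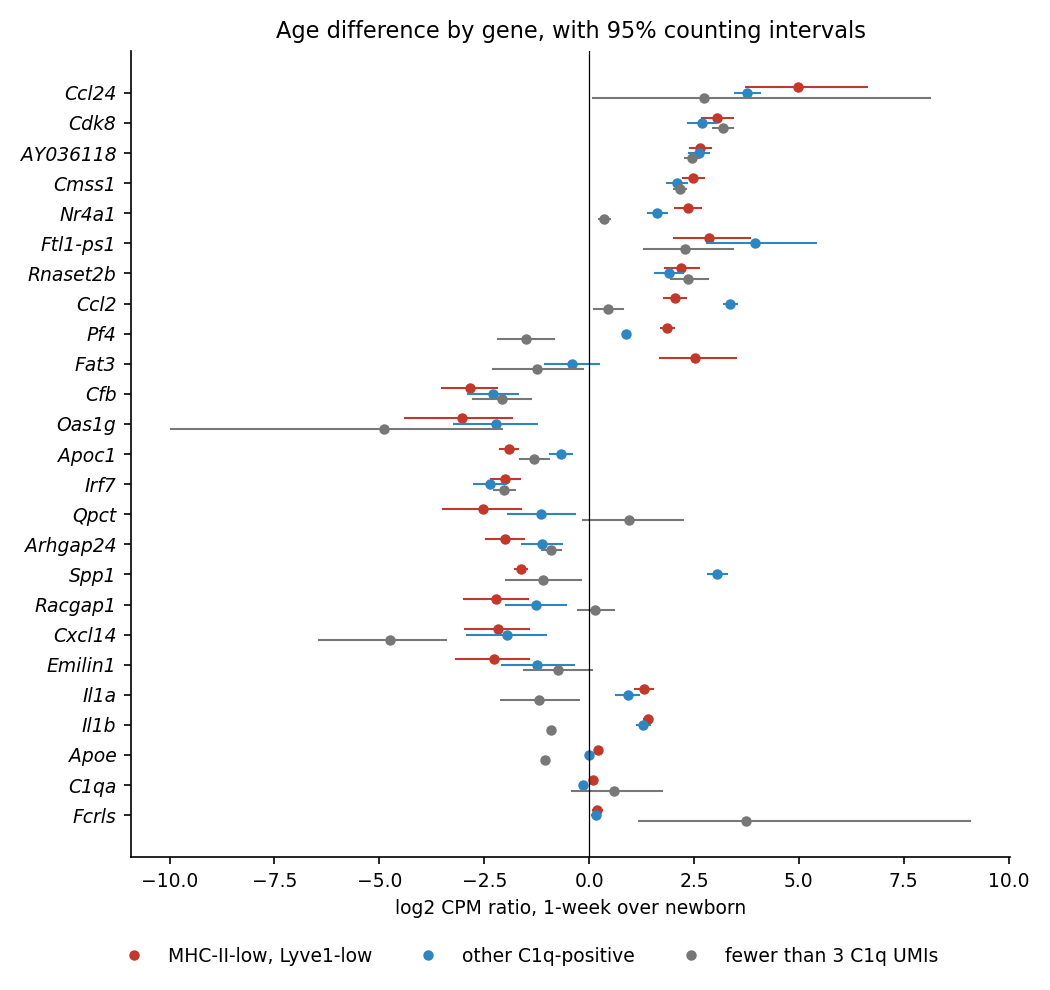
Points give the log2 CPM ratio of 1-week over newborn (x axis) for named genes (y axis) in MHC-II-low, Lyve1-low barcodes (red), other C1q-positive barcodes (blue) and barcodes with fewer than 3 C1q UMIs (grey), with exact 95% Poisson intervals for counting error. Cdk8, AY036118, Cmss1, Rnaset2b and Irf7 have like ratios in all 3 sets, while Il1a, Il1b and Pf4 are above 0 in the C1q-positive sets and below 0 in the grey one; genes with fewer than 10 UMIs in all in a set are not drawn.

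Cell cycle genes were lower at 1-week in 10 of 20 measured cases and higher in 0, with a median 0.87 below that of all genes. Ube2c, a ubiquitin-conjugating enzyme of mitosis, was 5.06-fold lower (98.5 and 19.5 CPM), Ccna2 4.83-fold (31.3 and 6.49) and Mki67 2.26-fold (66.3 and 29.4), and Racgap1, which acts in cytokinesis, was 4.62-fold lower (39.4 and 8.53). Barcodes with 3 or more UMIs of 8 mitotic genes were 21 of 90 at newborn, 23.3% (15.1% to 33.4%), and 41 of 451 at 1-week, 9.09% (6.603% to 12.1%). After thinning to 1500 UMIs, 21.1% and 12.6% had any UMI of these genes. The other C1q-positive barcodes gave 23.9% and 14.6% before thinning, and 21.1% and 15.6% after. In the barcodes with fewer than 3 C1q UMIs the list went the other way, with 4 of 20 higher and 0 lower at 1-week (background there 2.96% higher and 14.7% lower). The make-up of that set differed by library: barcodes gated as B cells were 51 of 182 at newborn and 425 of 1021 at 1-week. Among those B cell barcodes 15 of 20 genes of the list were higher (background 4.76%). The part of this make-up in the values given for that set, here and above, was not tested.

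Interferon-stimulated genes were lower at 1-week in 6 of 14 measured cases and higher in 0. Irf7, a transcription factor of this response, was 3.99-fold lower (157 and 39.3 CPM), Oasl2 3.58-fold (104 and 29.0) and Ifit3 3.19-fold (60.9 and 19.1). Oas1g, an antiviral synthetase of a family with close copies, was 8.20-fold lower on 25 and 8 UMIs. The same list was lower in 11 of 14 genes in the other C1q-positive barcodes (background 6.62%) and in 11 of 14 in barcodes with fewer than 3 C1q UMIs. The difference was therefore present in sets without the members.

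Apoc1 led the lipid genes that were lower at 1-week, 3.77-fold (381 and 101 CPM). The other C1q-positive barcodes stood at 153 and 96.6 CPM, so the members exceeded them 2.49-fold at newborn and 1.05-fold at 1-week, and 1 newborn member gave 17.9% of the UMIs. The newborn log2 ratio over the others, 1.32, was 0.90 without dividing barcodes, below the size rule, and 1.94 with limits on scaled UMIs. Its log2 ratio between ages ran from -2.05 to -1.64 over the alternatives tried. Fabp5, a fatty acid binding protein, was 2.96-fold lower (236 and 79.9 CPM), and Lpl, lipoprotein lipase, 2.05-fold (184 and 90.1), while Pltp, a phospholipid transfer protein, was 3.68-fold higher (8.06 and 29.7). Apoe was 1.15-fold higher. In all 3 of 13 measured lipid genes were lower and 1 higher. Cfb, factor B of the alternative complement pathway, was 7.12-fold lower (68.1 and 9.56 CPM) and was also lower in the other C1q-positive barcodes (54.3 and 11.1). A second gene model covers almost the whole Cfb locus on the same strand. Cfp, properdin, was 2.13-fold lower.

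Further named genes lower at 1-week rested on 100 or fewer UMIs at one or both ages. Qpct, an enzyme that cyclizes amino-terminal glutamine, stood at 31.3 and 5.46 CPM, Cxcl14, a chemokine, at 38.5 and 8.53, Emilin1, a matrix glycoprotein, at 31.3 and 6.49, and Arhgap24 at 93.1 and 23.2. Qpct, Cxcl14, Emilin1, Arhgap24 and Oas1g did not meet the size rule after thinning, with few UMIs left. Spp1, osteopontin, was 3.07-fold lower by its sums (793 and 259 CPM), but 1 newborn member held 754 of the 886 UMIs and 76 of the 90 had none. Without the highest barcode on each side the levels were 120 and 215 CPM, in the opposite order, so no direction is read for Spp1.

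Several lists had few or no genes apart between the ages by the size rule. Over all measured genes 2.54% were higher and 4.95% lower, so 0 in a list this short is near that share. Of 16 measured lysosomal genes 0 were apart in either direction, with Ctsb at 2372 and 1678 CPM and Lgmn at 2419 and 1467. Of 12 measured MHC class I pathway genes 0 were apart, with B2m at 1898 and 2150 CPM, and of 16 oxidative phosphorylation genes 0 were apart. Of 10 measured glycolytic genes Pkm was lower (331 and 155 CPM) and Hk2, a hexokinase, higher (88.6 and 192), while Gapdh stood at 1029.7 and 564. The median of the glycolysis list lay 0.56 below that of all genes, so that list as a whole was not level. Hormone receptor genes were low: of 14 listed 6 were measured, among them the glucocorticoid receptor Nr3c1 (72.5 and 93.9 CPM), the IGF-1 receptor Igf1r (66.3 and 59.4) and the insulin receptor Insr (30.4 and 31.7). Rxra, a retinoid X receptor, was 2.67-fold higher at 1-week on 5 and 35 UMIs. Ghr, Prlr, Pgr and Esr1 stayed below 10 CPM at both ages.

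**Figure D5:**
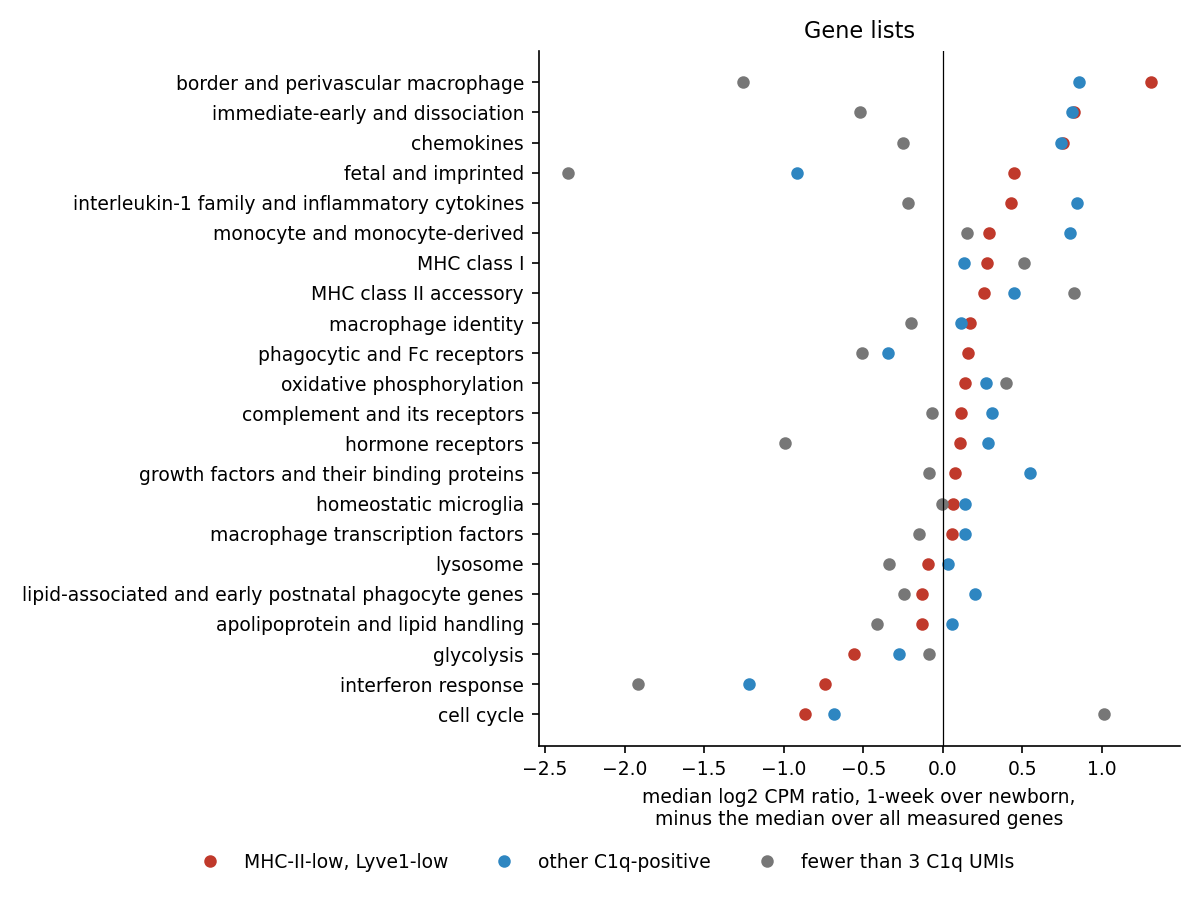
Points give, for each gene list (y axis), the median log2 CPM ratio of 1-week over newborn minus the median of all measured genes (x axis), in MHC-II-low, Lyve1-low (red), other C1q-positive (blue) and low-C1q barcodes (grey); sets with fewer than 5 measured genes of a list are not drawn. In red the border and perivascular list lies farthest above 0, at 1.31, and the cell cycle list farthest below, at -0.87.

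Members of 1 library were not alike. Pf4 had a UMI in 50 of 90 newborn and 257 of 451 1-week members, with medians of 0.776 and 1.56 UMIs per 10000 and highest values of 81.7 and 231. Taking 10 UMIs per 10000 as a limit on this range, set after the data were seen, 9 newborn (10.0%) and 109 1-week members (24.2%) lay at or above it. At 1-week these 109 held 1613 CPM of Mrc1 against 260 in the other 342, 1346 against 440 of Maf and 394 against 21.9 of F13a1. They held less Cd72 (63.8 against 402 CPM), Il1a (128 against 583) and Il1b (831 against 2296). Their median depth was 5099 UMIs against 6509. The 9 newborn barcodes had a median depth of 4507 UMIs. They differed from the other 81 the same way for Mrc1 (1001 against 238 CPM), Cd72 (0 against 298) and Il1a (16.7 against 209). By its sum Il1b went the opposite way (1251.5 against 728 CPM). But Il1b had a UMI in 33.3% of the 9 against 48.1% of the 81. Since 1 of the 9 held 38.2 Il1b UMIs per 10000, no direction is read for it at newborn. Without the members at or above that limit, 201 genes were higher and 493 lower by age.

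Across single members the same genes went together, as a description of sparse counts that share each barcode's depth. The Spearman correlation of Pf4 with Mrc1 was 0.42 over 90 newborn and 0.52 over 451 1-week members, and of Cd72 with Cxcl16 0.48 and 0.47. Il1b with Ccl4 gave 0.46 and 0.44, and Pf4 with Cd72 -0.26 and -0.38. The Spearman correlation of these genes with depth lay between -0.13 and 0.32. Apoe with Apoc1, its neighbour on the chromosome, gave 0.28 and 0.068.

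A small number of members carried monocyte genes. Ccr2, the receptor that brings monocytes into tissue, had a UMI in 7 of 90 newborn and 28 of 451 1-week members. At 1-week these 28 barcodes, with a median depth of 9688.5 UMIs against 5880 in the rest, held 875 CPM of Plac8 against 4.18, 719 against 15.9 of S100a6 and 827 against 167 of Ifitm3. They held 331 CPM of Apoc1 against 75.2, and 317 of Fcrls against 985. The 7 newborn barcodes held 1275 CPM of Apoc1 against 279 in the other 83, and 616 of Fcrls against 819. The other C1q-positive newborn barcodes stood at 153 CPM of Apoc1, less than 2-fold below that 279. Vcan stood at 0 and 1.37 CPM in all members and Ly6c2 at 3.58 and 1.71. Plac8 over all members stood at 23.3 CPM at newborn and 92.2 at 1-week.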

How the data were processed

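Leukocytes sorted for CD45 from mouse pituitary were run on a 10x Chromium 3′ assay, per the labels' protocols. The deposited matrices hold whole-number UMI counts per gene and barcode over 32285 genes, made with Cell Ranger 7.1.0 on mm10, per the submitters' processing notes. The sources used here do not say if intronic reads were included.

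Members, gene lists and tests were chosen with earlier results of these data known. Counts were summed over the barcodes of a group and scaled to CPM (Python 3.11.15, scipy 1.17.1, pandas 2.3.3). Exact 95% intervals (conditional Poisson for ratios, Clopper-Pearson for shares) were used, and the floor beside a 0 is 3 counts. UMIs of 1 barcode are not independent of each other, so these intervals are too narrow for genes held by few barcodes. The calculation was tested on simulated counts. A gene was measured at 10 CPM on either side. It was apart at 2-fold with an interval that excludes 1. Barcodes shared between libraries and doublets (Scrublet in scanpy 1.11.5) were kept, and left out as alternatives. Depth per member barcode ran from 2460 to 42114 UMIs at newborn and 1506 to 24337 at 1-week.

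Genes were named by rule: by age, the 10 highest lower and 10 lowest upper bounds; against other C1q-positive barcodes, 10 each way among genes apart in both libraries, by the weaker bound; the 15 with the highest mean CPM; the 5 markers; and up to 4 members of each of 22 lists, or those needed for a count. The bounds needed a UMI in 10% of barcodes. Left out were genes of the limits and of other cells' marker lists, sex-linked and predicted genes, haemoglobin, T cell receptor, immunoglobulin, ribosomal and mitochondrial genes, and genes over 5 times higher in barcodes with fewer than 3 C1q UMIs. Loci are from GENCODE vM21. The alternatives, 13 planned and 2 added after the data were seen, are given in the closing section.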

Additional observations from a re-analysis of the deposited data

Results flagged for a closer look

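Some genes differed between the members and the other C1q-positive barcodes with opposite signs in the 2 libraries. By the size rule 7 genes were higher in the members at newborn and lower at 1-week, and 3 the reverse. Only Spp1, Nnat and Fat3 are given here, as values, and the difference between libraries was not tested. Spp1 had a log2 ratio of 2.38 at newborn and -2.29 at 1-week. At newborn 1 member gave 85.1% of its UMIs, and without the highest barcode on each side the levels were 120 CPM in members against 104 in the others. At 1-week 1 of the other barcodes gave 45.4% of that set's UMIs. Nnat, an imprinted gene, had log2 ratios of -1.56 and 1.09 (42.1 against 124 CPM and 137 against 64.5), and 1 barcode gave 39.7% of the UMIs of the other set at newborn and 48.4% of the members' at 1-week. Fat3 had log2 ratios of -1.25 and 1.69, on 12 member UMIs at newborn and 181 at 1-week. At 1-week 1 of the other barcodes gave 70.0% of that set's Nnat UMIs. Without the highest barcode on each side, Nnat stood at 32.5 CPM in members against 77.1 in the others at newborn. At 1-week it then stood at 70.9 against 19.5 CPM, so its signs stayed opposite.

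Barcodes through the same limits were also present in the libraries that the comparisons do not use: 241 at 3-week and 282 at 8-week. In these H2-Ab1 had a UMI in 61.4% and 59.9% of barcodes, against 3.33% of the newborn and 6.21% of the 1-week members. Neutrophil markers summed to 1256 CPM in the 8-week barcodes, led by S100a9, and T and NK cell markers to 639 CPM.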

How the results depend on the processing

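No paired analysis was possible because each age has 1 library. Of the counts and shares that answer a comparison, 107 of 123 values under the alternatives stayed within 1.5 times of the main count or within its interval. With a minimum of 50 CPM the counts were 73 higher and 76 lower by age, 39 and 94 against the other barcodes at newborn, and 81 and 126 at 1-week, since fewer genes are then measured. With no CPM minimum the 1-week counts against the others were 328 and 807. Median-ratio scaling gave 327 and 264 by age. Thinning to 1500 UMIs gave 98 and 184 at newborn, where 2 lists (not 4) lay at least 0.5 from all genes. Limits on scaled UMIs gave 296 higher at newborn and a newborn share of 77.6%, and a Lyve1, Cd163 and Folr2 limit of 0 gave a 1-week share of 49.3%.

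Signs turned in these cases, as log2 ratios. With limits on scaled UMIs, by age, Spp1 turned to 0.076 and F13a1 to -0.52, and against the others at newborn the chemokine list turned to 0.40 and the fetal and imprinted list to 0.058. Thinning turned Fat3 at newborn against the others to 0.39. Without the highest barcode on each side Spp1 by age turned to 0.84. Without members at 10 or more Pf4 UMIs per 10000, by age, Pf4 turned to -0.14, which the limit itself brings about, Ednrb to -0.14, Cbr2 to -2.73, Mgl2 to -2.14 and Clec10a to -1.73. These last alternatives were chosen after seeing the data, and the cause of the other turns was not tested. Ednrb, Cbr2, Mgl2 and Clec10a stood below 10 CPM in the newborn members. Their turns thus rest on few UMIs, and no direction is read for them. Of 28 named genes apart by age 15 lost the call under at least 1 alternative, of 24 at newborn against the others 10, and of 24 at 1-week 4. With 90 newborn members, genes under about 100 UMIs in all were limited by counting.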

Other observations

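Levels in the Lyve1 group and the Sparc group are given here for 4 genes, since the comparison with all other C1q-positive barcodes merges them. Mmp14 stood at 90.4 CPM in the newborn members, 10.3 in the Lyve1 group and 34.9 in the Sparc group, and at 66.9, 3.76 and 24.5 at 1-week. Ctss stood at 3931, 1368 and 4022 CPM at newborn and at 3273, 1072 and 3339 at 1-week, level between members and Sparc group. Cst3 stood at 4418, 3199.5 and 6138 CPM at newborn and 5388, 3667 and 10856 at 1-week, highest in the Sparc group. Il1a had 83.2 CPM in the Lyve1 group and 397 in the Sparc group at 1-week, against 490 in the members.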
